A study of Mus musculus with 12 samples.

Results

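A set of 9 genes of the interleukin-1 (IL-1) family and its signalling were followed in mouse osteocyte-like cells. They are the ligand genes Il1a, Il1b, Il33 and Il18, the antagonist gene Il1rn, the receptor genes Il1r1, Il1rap and Il1rl1, and Irak3, an inhibitor of receptor signalling. The 9 genes were chosen by name from the 51707 genes of the table, with earlier results of these libraries known. Il1b had no read in any of the 12 libraries, and the other 8 passed the filter on low counts. Il1a passed it through the differentiated BIGH3 libraries alone, so it is described by its reads and left out of the counts of genes that rose or fell.

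The libraries came from the MLO-Y4 line, an osteocyte-like line of mouse bone, grown in every group on plates coated with rat tail collagen at 0.15 mg/mL. The genotype of the line was not tested. There were 4 groups of 3 libraries: controls and BIGH3 treated cells, each either left undifferentiated or differentiated. BIGH3, the product of the TGFBI gene, was given as recombinant human protein, and its effect on the gap junction gene Gja1 was the stated question of the series. Differentiation medium was α-MEM with fetal bovine serum at 10%, ascorbic acid at 50 µg/mL and β-glycerophosphate at 4 mM. The sources used here give neither the medium of undifferentiated cells nor the BIGH3 dose, its duration or the treatment of controls, so differentiation and the medium cannot be told apart. Separate cultures are not named for the 3 libraries of a group, so p-values here reflect the spread among these libraries alone. All cells are of 1 line, whose identity was not tested. The deposited data are named with another prefix, MC3.

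IL-1α and IL-1β bind IL1R1, which then recruits the accessory protein IL1RAP, and the paired intracellular domains pass the signal through MYD88 and IRAK kinases to NF-kB. IL-33 uses ST2, the product of Il1rl1, with the same accessory protein, whereas IL-18 has receptor chains of its own. The pathway has several brakes, among them the receptor antagonist encoded by Il1rn, soluble receptors that lack the membrane anchor, and IRAK3. In bone, IL-1 is known as a stimulus of osteoclast formation, and IL-18 and IL-33 have been described as products of osteoblast lineage cells.

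Depth was 19014492 to 27612155 estimated reads per library. Of the osteocyte markers, Dmp1, Phex and Pdpn were expressed, Fgf23 had no read and Sost had 10 reads, all in differentiated controls. Mepe was close to absent, with 42 reads in differentiated controls and 2 with BIGH3. In undifferentiated cells it had 4 reads without and 3 with BIGH3. Of 9 macrophage and monocyte markers, 3 reached 1 CPM (reads scaled to library size) in any library. Their summed level in undifferentiated cells was 32.7 to 35.6 CPM without and 32.2 to 34.8 CPM with BIGH3. In differentiated cells it was 53.4 to 58.0 CPM without and 58.4 to 70.1 CPM with BIGH3. Lyz2 and Cd14 made up most of it, while Tyrobp, a defining gene of the lineage, had no read. Fcer1g, an immunoglobulin receptor subunit of myeloid and mast cells, was at 0.14 ± 0.13 CPM in differentiated controls and 1.45 ± 0.43 CPM with BIGH3 (SD, n = 3). The part of such cells in the results was not tested. Of 9 mast cell and lymphocyte markers, 1 (Gata3) reached 1 CPM, and the mast cell genes Cpa3 and Fcer1a had no read. Transcripts of liver genes stood apart in control 2 and BIGH3 1 of the undifferentiated cells and in control 2 and BIGH3 3 of the differentiated cells, with a summed level of up to 99.5 CPM over 8 markers. The sum was at most 19.8 CPM in undifferentiated BIGH3 libraries and 24.2 to 70.0 CPM in differentiated BIGH3 libraries. In the latter the marker Trf was at 20.2 to 24.7 CPM in each library, so the sum does not set these libraries apart by itself. Without these 4 libraries the 7 genes counted below were still called with BIGH3 in differentiated cells in the same directions, and calls not made without them in other comparisons are named below.

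A pair of transcript features frames the results. The first is the pair of Il33 start sites, which give messages with an identical coding sequence of 266 codons. The 250 bases before each start (RefSeq, GRCm38.p6, plus strand) are shown because the downstream start was used at a measurable level in differentiated cells with BIGH3. They lie at chr19:29924863-29925112 and chr19:29945540-29945789, and capitals mark the TATA box letters TATAAA.
Il33 upstream start: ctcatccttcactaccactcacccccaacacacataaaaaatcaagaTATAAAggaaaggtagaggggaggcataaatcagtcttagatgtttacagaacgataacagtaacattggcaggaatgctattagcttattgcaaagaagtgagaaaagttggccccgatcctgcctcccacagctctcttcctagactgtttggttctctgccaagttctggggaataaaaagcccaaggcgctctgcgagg
Il33 downstream start: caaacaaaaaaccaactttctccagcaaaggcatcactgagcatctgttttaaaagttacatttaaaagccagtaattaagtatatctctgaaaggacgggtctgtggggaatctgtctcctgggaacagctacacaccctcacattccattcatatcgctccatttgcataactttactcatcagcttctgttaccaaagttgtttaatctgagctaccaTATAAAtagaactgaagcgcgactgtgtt
The match begins 29 bases before the downstream start and 203 bases before the upstream start. The window before Il1a (chr2:129309973-129310222, minus strand, same source) is shown because Il1a had reads in 1 group almost alone. Its capitals mark TATAAA, 32 bases before the start, and the AP-1 letters TGANTCA, 12 bases before it.
Il1a start: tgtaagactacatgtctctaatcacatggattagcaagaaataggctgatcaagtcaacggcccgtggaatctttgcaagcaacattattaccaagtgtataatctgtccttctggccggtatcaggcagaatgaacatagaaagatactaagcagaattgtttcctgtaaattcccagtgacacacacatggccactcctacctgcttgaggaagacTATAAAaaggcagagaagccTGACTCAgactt
The window before the Il1r1 start that supplied most of its message (chr1:40266336-40266585, plus strand, same source) is shown because it alone among 15 windows of the 9 genes matched the NF-kB consensus, in capitals, 232 bases before the start.
Il1r1 main start: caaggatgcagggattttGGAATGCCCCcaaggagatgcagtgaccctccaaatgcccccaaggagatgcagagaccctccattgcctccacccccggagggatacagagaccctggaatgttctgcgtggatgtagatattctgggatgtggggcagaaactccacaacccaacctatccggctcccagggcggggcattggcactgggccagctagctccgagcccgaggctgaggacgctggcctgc
Both strands were searched, and no match overlapped another. Of the 15 windows, 5 held TATAAA, 2 held TGANTCA and none held the CEBP palindrome TTGCGCAA, against 12.4%, 6.75% and 0.164% of all 32851 promoter windows of the same length. The NF-kB consensus was in 3.90% of them. A match describes letters and is not a measured site.

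The second feature is the split of Il1rl1 into a membrane and a soluble receptor. Both messages share 985 coding bases, and the last of these are printed below in lower case (GENCODE M21, GRCm38). Capitals mark where the forms part. Il1rl1-202 goes on into the transmembrane form of 567 codons. Il1rl1-203 adds 29 coding bases of its own, stop codon included, and ends at 337 codons as the secreted form known as soluble ST2.
Il1rl1-202: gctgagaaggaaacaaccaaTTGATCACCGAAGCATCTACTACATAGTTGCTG
Il1rl1-203: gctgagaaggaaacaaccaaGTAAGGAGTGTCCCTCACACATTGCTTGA
Il1rn likewise has a secreted and an intracellular form, whose coding sequences differ at the start. Capitals mark the bases before the shared part in the secreted form of 178 codons (Il1rn-201) and the intracellular form of 159 codons (Il1rn-204).
Il1rn-201: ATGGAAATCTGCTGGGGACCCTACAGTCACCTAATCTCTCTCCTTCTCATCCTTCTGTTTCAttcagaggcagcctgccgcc
Il1rn-204: ATGGCttcagaggcagcctgccgcc

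In differentiated cells with BIGH3, Il1rl1, Irak3, Il33 and Il1r1 rose, whereas Il18, Il1rn and Il1rap fell. These 4 and 3 are all of the 7 members that passed the filter without the differentiated BIGH3 libraries. For none of the 7 did a treated library overlap a control library, but the share of all genes without such overlap was not counted. Il1a had 1 read in the 3 controls and 93 in the 3 treated libraries. The comparison called 45.5% of all 14711 genes tested (22.6% higher and 22.9% lower), so a large share of the transcriptome changed along with these genes. In undifferentiated cells 0 of the 7 were called, against a background of 0.0204% (0.0068% higher and 0.0136% lower, or 3 genes by edgeR, 8 by DESeq2, 599 at an unadjusted p below 0.05). The plot of TPM by library shows these levels for the 9 genes.

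**Figure D1:**
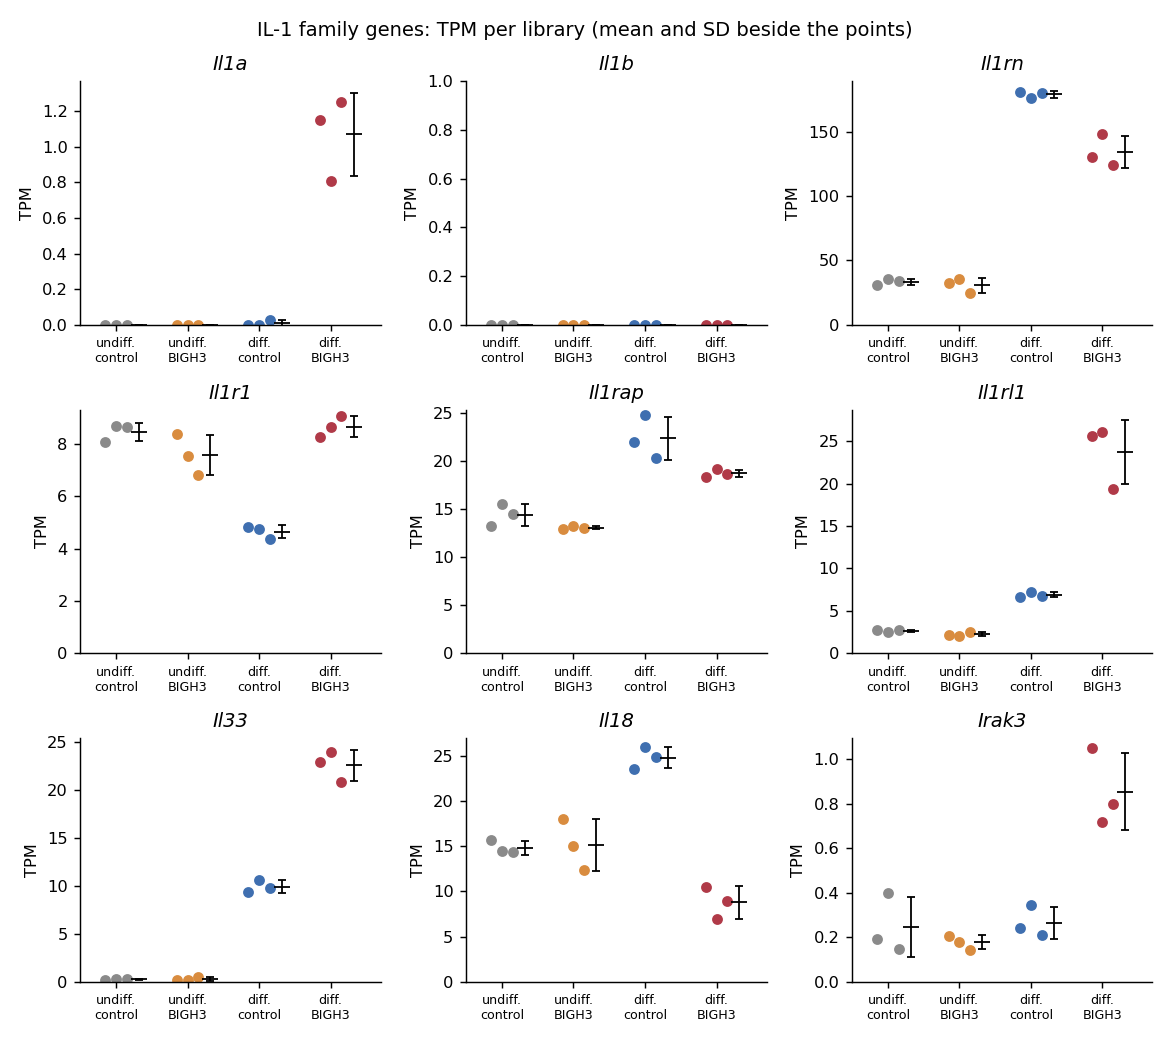
TPM (a level scaled to the library and corrected for transcript length) of the 9 IL-1 family genes, 1 point per library and the mean with SD beside each group of 3. Il33 and Il1rl1 are highest in differentiated BIGH3 libraries, Il18 is lowest there, Il1rn and Il1rap are highest in differentiated controls, and Il1b is at 0 throughout.

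Il1a (ENSMUSG00000027399.1, chr2:129299610-129309972, minus strand) encodes IL-1α, which is active as a precursor and is released from damaged cells. Its estimated reads were 0 in all 6 undifferentiated libraries, 0, 0 and 1 in differentiated controls 1 to 3, and 38, 23 and 32 in differentiated BIGH3 libraries 1 to 3. Il1a thus appeared in the 3 differentiated BIGH3 libraries and was nearly absent elsewhere, at a low level even there. The TPM was 1.15, 0.81 and 1.25 in those 3. The ratio of read rates to differentiated controls was 107 (95% exact interval 18.7 to 4267, counting error only). No test is given, because the gene passed the filter through these 3 libraries alone. Against undifferentiated BIGH3 libraries Il1a was at least 37.2-fold higher, taking a floor of 3 reads over that group. Exons of Il1a overlap those of the opposite-strand gene Gm14023. No source used here states the strand of the libraries, so reads from that overlap cannot be told apart. Gm14023 was assigned 2 reads in differentiated controls and 0 in the other groups. The part of such reads in the Il1a count was not tested.

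Il1b (ENSMUSG00000027398.13, chr2:129364570-129371139, minus strand) encodes IL-1β, which caspase-1 cleaves to its active form. None of its 3 annotated transcripts was assigned a read, so its level was under 0.105 to 0.168 CPM, depending on the library (a floor of 3 reads). Any Il1b message was not detectable at this depth in any group, including the one in which Il1a appeared.

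Il33 (ENSMUSG00000024810.16, chr19:29925114-29960718, plus strand) encodes IL-33, a nuclear cytokine released on cell damage. Its TPM in libraries 1 to 3 was 0.20, 0.27 and 0.26 in undifferentiated controls and 0.15, 0.21 and 0.47 in undifferentiated BIGH3 libraries. It was 9.36, 10.62 and 9.72 in differentiated controls and 22.91, 23.96 and 20.76 in differentiated BIGH3 libraries. Il33 was thus close to the limit of detection before differentiation, and its differentiated levels separated by treatment without overlap. Differentiation raised it 47.8-fold in control cells (log2 fold change 5.58 ± 0.17 SE, edgeR adjusted p = 1.46e-16). BIGH3 raised it a further 2.29-fold in differentiated cells, from 19.5 ± 1.5 to 44.7 ± 4.7 CPM (SD, n = 3). That log2 fold change was 1.20 ± 0.10 SE by edgeR (adjusted p = 1.92e-09).

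Reads of Il33 were divided between the starts shown above. The message from the upstream start (29925114, Il33-202) had 9.17, 10.62 and 9.43 TPM in differentiated controls and 19.45, 19.24 and 18.39 TPM with BIGH3. The message from the downstream start (29945790, Il33-201) had 0.19, 0 and 0 TPM in those controls and 3.46, 4.71 and 2.37 TPM with BIGH3. Both messages were higher in every treated library, and the downstream message went from at most 1.98% of Il33 TPM in a differentiated control to between 11.4% and 19.7%. These are 80.9 to 180 estimated reads in a treated library against at most 8.57 in a control. In undifferentiated BIGH3 library 2 all 8 reads of the gene were given to the downstream message, a split that rests on few reads. Shares of transcripts are model estimates of reads that fit several transcripts, and they were described without a test.

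Il18 (ENSMUSG00000039217.13, chr9:50554827-50581840, plus strand) encodes IL-18, another substrate of caspase-1. Its TPM was 15.73, 14.43 and 14.30 in undifferentiated controls, 18.05, 15.06 and 12.33 in undifferentiated BIGH3 libraries, 23.56, 25.97 and 24.90 in differentiated controls, and 10.49, 6.93 and 8.89 in differentiated BIGH3 libraries. The differentiated controls were the highest group and the differentiated BIGH3 libraries the lowest, with no overlap between them or with either undifferentiated group in TPM. Differentiation raised Il18 by 1.00 ± 0.15 SE (log2) in control cells (edgeR adjusted p = 1.01e-05), and BIGH3 lowered it in differentiated cells by 2.75-fold (log2 fold change -1.46 ± 0.16 SE, edgeR adjusted p = 1.99e-07). In BIGH3 treated cells Il18 fell with differentiation instead, by 0.41 ± 0.16 SE (log2, edgeR adjusted p = 0.0383). That last call was narrow, and the CPM of the groups overlapped. It was lost without undifferentiated BIGH3 1 (0.161) or 2 (0.0827), without differentiated BIGH3 2 (0.221) or 3 (0.0647), without the 4 libraries with liver transcripts (0.244) or the 3 highest of them (0.0873), and with the compared groups fitted alone (0.0719), with values of -0.23 to -0.43.

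Il1rn (ENSMUSG00000026981.15, chr2:24336853-24351494, plus strand) encodes the IL-1 receptor antagonist, which occupies IL1R1 without recruiting IL1RAP. It had the highest mean TPM of the 9 genes in every group. In undifferentiated cells its separation from Il18 rested on a short transcript described below. Its TPM was 31.06, 35.20 and 33.74 in undifferentiated controls, 32.23, 35.85 and 24.49 in undifferentiated BIGH3 libraries, 180.59, 175.88 and 179.99 in differentiated controls, and 130.47, 148.13 and 124.14 in differentiated BIGH3 libraries. Both differentiated groups lay far above both undifferentiated groups, and the treated libraries lay below the differentiated controls. Differentiation raised Il1rn 6.49-fold in control cells (log2 fold change 2.70 ± 0.07 SE, edgeR adjusted p = 1.02e-17). BIGH3 in differentiated cells lowered it from 154 ± 4.7 to 119 ± 12.6 CPM (SD, n = 3), a log2 fold change of -0.37 ± 0.06 SE (edgeR adjusted p = 5.04e-05).

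The secreted message Il1rn-201 had 16.2 to 36.5 TPM in differentiated controls and 17.1 to 26.2 TPM with BIGH3, which overlapped. The intracellular message Il1rn-204 had 42.0 to 56.0 TPM in those controls and 35.7 to 37.9 TPM with BIGH3, which did not. A short message of the same gene (Il1rn-205) took 40.4% to 57.6% of the gene's TPM over the 12 libraries but only 4.37% to 8.14% of its estimated reads, since TPM divides by length. Without it the Il1rn level was 14.6 to 19.5 TPM in undifferentiated libraries, which overlapped Il18 in both groups. In differentiated cells it was 77.8 to 90.6 TPM in controls and 67.1 to 73.4 TPM with BIGH3, still without overlap. The intracellular message exceeded the secreted one in all 6 differentiated libraries.

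Il1r1 (ENSMUSG00000026072.12, chr1:40225080-40317257, plus strand) encodes the signalling receptor for IL-1α and IL-1β. Its TPM was 8.08, 8.70 and 8.66 in undifferentiated controls, 8.39, 7.53 and 6.83 in undifferentiated BIGH3 libraries, 4.84, 4.74 and 4.36 in differentiated controls, and 8.27, 8.66 and 9.09 in differentiated BIGH3 libraries. The differentiated controls stood alone at the low end, below every library of the other 3 groups. Il1r1 was the only member that fell with differentiation in control cells (log2 fold change -0.58 ± 0.07 SE, edgeR adjusted p = 1.18e-06). In differentiated cells BIGH3 raised it from 18.4 ± 0.1 to 33.9 ± 1.9 CPM (SD, n = 3), a log2 fold change of 0.88 ± 0.07 SE (edgeR adjusted p = 4.51e-09). In BIGH3 treated cells it rose with differentiation by 0.38 ± 0.07 SE (log2, edgeR adjusted p = 0.000174), a call that limma on log2 TPM did not make (0.19, adjusted p = 0.103). The message from the start shown above (40266586, Il1r1-202) supplied 86.8% to 99.3% of its TPM in every library.

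Il1rap (ENSMUSG00000022514.14, chr16:26581704-26730117, plus strand) encodes the accessory chain shared by the IL-1 and IL-33 receptors. Its TPM was 13.20, 15.51 and 14.49 in undifferentiated controls, 12.96, 13.21 and 13.05 in undifferentiated BIGH3 libraries, 22.01, 24.77 and 20.34 in differentiated controls, and 18.36, 19.13 and 18.63 in differentiated BIGH3 libraries. The differentiated controls were highest, the differentiated BIGH3 libraries came next, and the undifferentiated groups overlapped. Il1rap rose 1.92-fold with differentiation in control cells (log2 fold change 0.94 ± 0.07 SE, edgeR adjusted p = 3.05e-10). With BIGH3 in differentiated cells it fell by 0.28 ± 0.07 SE (log2, edgeR adjusted p = 0.0018), the smallest called change among the 7 genes. The membrane form of 570 codons (Il1rap-201) held 80.02% to 90.1% of its TPM. The soluble form of 360 codons (Il1rap-206) held 8.91% to 18.0%, with 2.56 to 2.95 TPM in differentiated controls and 2.34 to 3.44 TPM in differentiated BIGH3 libraries, which overlapped.

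Il1rl1 (ENSMUSG00000026069.15, chr1:40429570-40465415, plus strand) encodes ST2, the IL-33 receptor. Its TPM was 2.76, 2.52 and 2.72 in undifferentiated controls, 2.13, 2.09 and 2.49 in undifferentiated BIGH3 libraries, 6.68, 7.22 and 6.78 in differentiated controls, and 25.67, 26.08 and 19.34 in differentiated BIGH3 libraries. The undifferentiated libraries were lowest and the differentiated BIGH3 libraries highest, with differentiated BIGH3 3, a library with liver transcripts, below the other 2 of its group. BIGH3 raised Il1rl1 3.41-fold in differentiated cells, from 16.2 ± 1.1 to 55.2 ± 9.8 CPM (SD, n = 3), and the log2 fold change was 1.77 ± 0.11 SE (edgeR adjusted p = 1.88e-10). Without the 4 libraries with liver transcripts it was 1.92. Differentiation in control cells raised Il1rl1 by 1.52 ± 0.13 SE (log2, edgeR adjusted p = 8.84e-09).

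The soluble form (Il1rl1-203) carried most of the Il1rl1 message in every library, between 72.8% and 90.6% of its TPM. Its TPM was 5.97, 6.42 and 5.97 in differentiated controls and 23.26, 23.40 and 16.99 with BIGH3. The transmembrane form, summed over Il1rl1-201 and Il1rl1-202 because the model moved reads between them, had 0.71, 0.80 and 0.81 TPM in those controls and 2.41, 2.69 and 2.35 TPM with BIGH3. Both forms were higher in each treated differentiated library than in each control. The ratio of soluble to transmembrane TPM was 7.41 to 8.37 in differentiated controls and, overlapping these, 7.23 to 9.63 with BIGH3. In the 6 undifferentiated libraries the ratio was 2.68 to 4.74, below all 6 differentiated libraries, and the transmembrane form stood at 0.44 to 0.68 TPM there. The plot of transcript forms sets these beside the forms of Il33 and Il1rn.

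**Figure D2:**
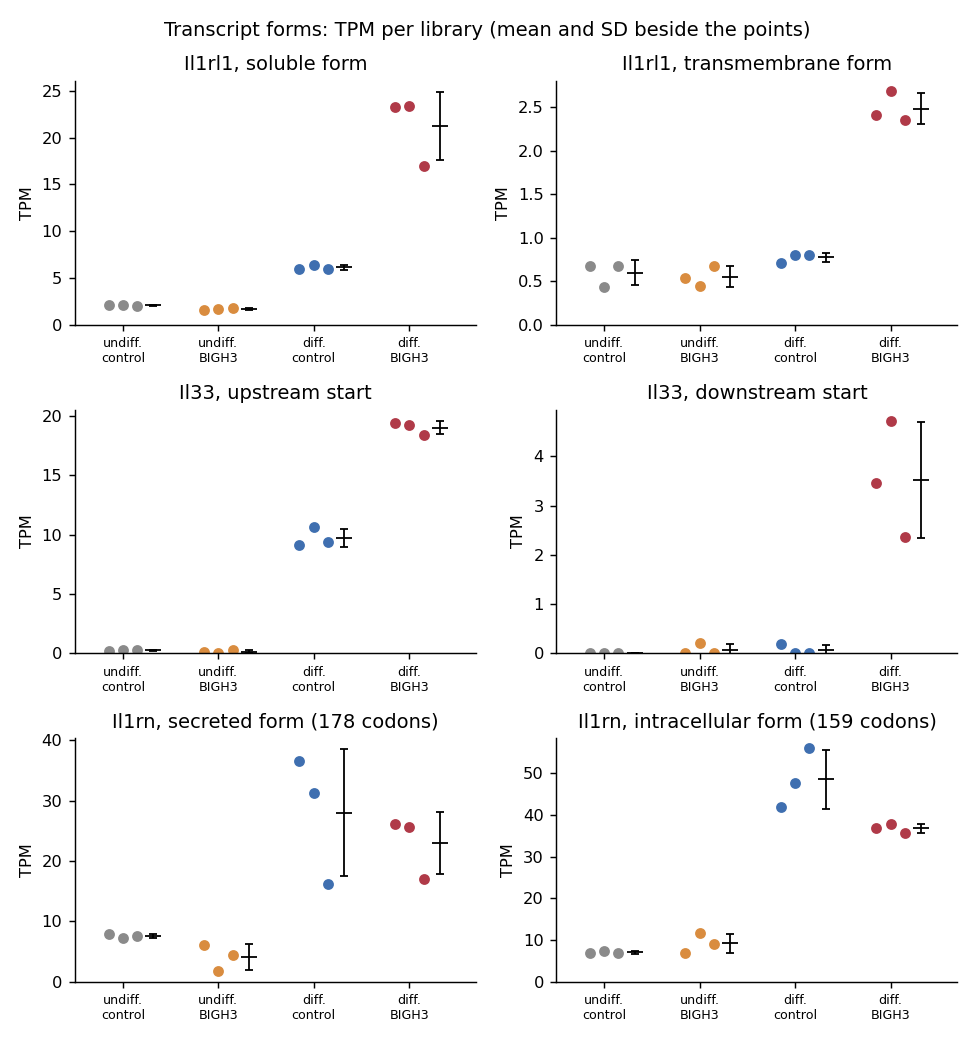
TPM of 2 transcript forms of Il1rl1, Il33 and Il1rn, 1 point per library with the mean and SD of each group of 3. Each panel has its own vertical scale: soluble Il1rl1 reaches 23.40 TPM and the transmembrane form 2.69 TPM, and the downstream Il33 message is above 2 TPM only in differentiated BIGH3 libraries.

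Irak3 (ENSMUSG00000020227.10, chr10:120141648-120202130, minus strand) encodes an IRAK family member that restrains signalling downstream of MYD88. Its TPM was 0.19, 0.40 and 0.15 in undifferentiated controls, 0.21, 0.18 and 0.14 in undifferentiated BIGH3 libraries, 0.24, 0.34 and 0.21 in differentiated controls, and 1.05, 0.72 and 0.80 in differentiated BIGH3 libraries. The first 3 groups overlapped at a low level and the last lay above them all. With BIGH3 in differentiated cells Irak3 rose 3.35-fold, from 41 to 122 estimated reads over the 3 libraries (log2 fold change 1.74 ± 0.39 SE, edgeR adjusted p = 0.00094). Differentiation alone gave 0.49 ± 0.41 SE (log2) in control cells and was not called (edgeR adjusted p = 0.328). Exons of Irak3 overlap those of Tmbim4 on the opposite strand, which had 3486 to 6011 reads per library and a mean of 204 CPM in differentiated controls and 260 CPM with BIGH3. The part of such reads in the Irak3 count was not tested.

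With differentiation in control cells, 5 of the 7 genes rose (Il33, Il1rn, Il1rl1, Il18 and Il1rap), Il1r1 fell, and Irak3 was not called, against 57.7% of all genes called (29.1% higher and 28.6% lower). In BIGH3 treated cells 6 rose and Il18 fell, against 56.6% (28.9% higher and 27.7% lower). Whether a share of 6 or 7 of so few genes differs from such backgrounds was not tested. In BIGH3 treated cells the log2 fold changes were 6.84 for Il33, 3.43 for Il1rl1, 2.57 for Irak3, 2.33 for Il1rn and 0.66 for Il1rap. These 2 comparisons share no library, but each shares its libraries with the BIGH3 comparisons, so the values are given side by side and not as independent results. Scaling matters more here than between treatments. In control cells 50.5% of all called genes were higher, against 33.2% with library totals and 19.9% with limma on log2 TPM, and the median of all genes moved to -0.16 and -0.28. The members called in control cells kept their direction and call under both. In BIGH3 treated cells the share was 51.1%, against 36.9% and 26.9%, and the median of all genes moved to -0.10 and -0.18. In these bulk libraries fewer cells expressing a gene and less RNA per cell cannot be told apart.

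**Figure D3:**
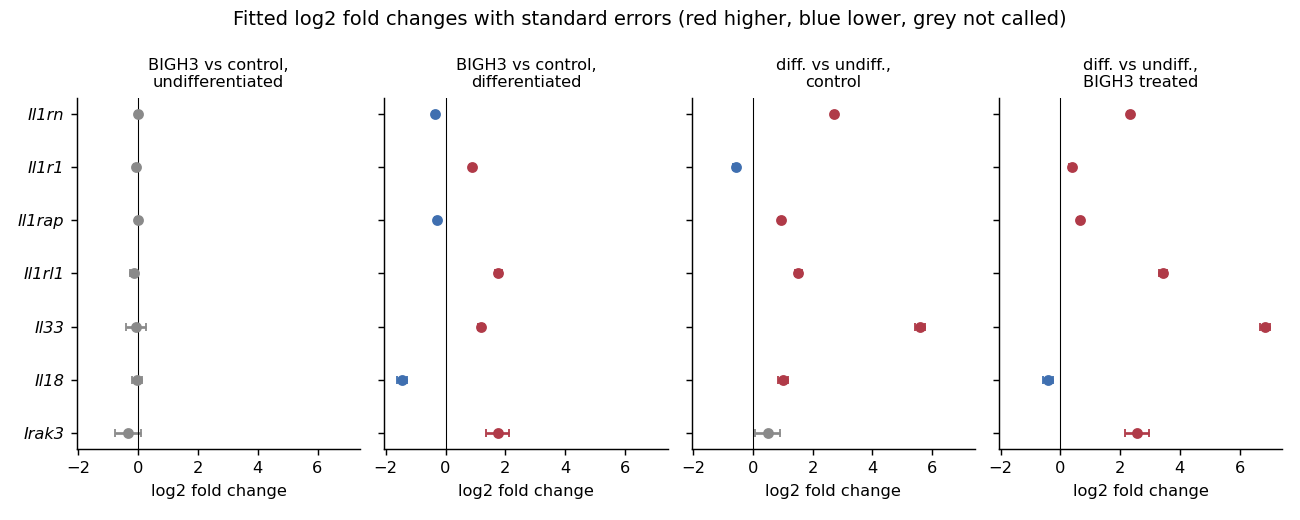
Fitted log2 fold changes of 7 IL-1 family genes in 4 comparisons, with bars of 1 standard error and colour for genes called higher, lower or not called at an adjusted p below 0.05. No gene is called in undifferentiated cells with BIGH3. Il1r1 and Il18 change direction between the control and the BIGH3 treated panels of differentiation. Il1rn and Il1rap rise in both of those panels and fall with BIGH3 in differentiated cells. Il1a and Il1b are left out because of groups with no reads.

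The interaction compares the BIGH3 effect in differentiated cells with that in undifferentiated cells. It was called for all 7 genes, against 32.2% of all genes (16.2% more positive and 16% more negative). The BIGH3 effect was more positive after differentiation for Irak3, Il1rl1, Il33 and Il1r1 and more negative for Il18, Il1rn and Il1rap. The largest differences with small errors were those of Il1rl1 (1.91 ± 0.18 SE, edgeR adjusted p = 1.40e-07) and Il18 (-1.42 ± 0.22 SE, edgeR adjusted p = 4.80e-05). Il1r1 followed at 0.96 ± 0.10 SE (edgeR adjusted p = 3.62e-07). These 3 calls held in all 20 alternatives. The remaining 4 missed the threshold in some alternatives, in the same direction (adjusted p in brackets). Il1rap (-0.28 ± 0.10 SE, edgeR adjusted p = 0.036) lost its call in 11 of the 20, including without undifferentiated control 1 (0.105) or 3 (0.0575), undifferentiated BIGH3 2 (0.0804) or 3 (0.0710), differentiated control 2 (0.0988), and differentiated BIGH3 1 (0.0641) or 3 (0.0612). Its values there were -0.12 with limma on log2 TPM and -0.22 to -0.28 in the other 10. Irak3 (2.08 ± 0.58 SE, edgeR adjusted p = 0.0094) lost it without the 4 libraries with liver transcripts (0.0663) and without the 3 highest of them (0.0659), where the values were 1.97 and 1.82. Il33 (1.26 ± 0.35 SE, edgeR adjusted p = 0.0083) lost it without those 4 (1.04, adjusted p = 0.0924) and with length offsets (1.05, adjusted p = 0.0749). Il1rn (-0.37 ± 0.10 SE, edgeR adjusted p = 0.0056) lost it with length offsets (-0.39, adjusted p = 0.106) and with limma on log2 TPM (-0.29, adjusted p = 0.232). For Il1a, at 0 reads in both undifferentiated groups, edgeR gave no usable value.

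In undifferentiated cells the log2 fold changes with BIGH3 lay between -0.34 ± 0.44 SE for Irak3 and 0.00 ± 0.07 SE for Il1rn, all with an edgeR adjusted p of 1.00. In CPM the treated and control libraries overlapped for each of the 7 genes with reads. In TPM those of Il1rl1 did not, at 2.09 to 2.49 with BIGH3 and 2.52 to 2.76 without. The precision differed between genes: the standard error (log2) was 0.07 for Il1rn, Il1r1 and Il1rap and 0.33 for Il33, which had 30 reads in the 3 controls.

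By mean TPM, with the short Il1rn transcript included, the order of the genes was Il1rn, Il18, Il1rap, Il33, Il1rl1, Il1r1, Irak3, Il1a and Il1b in differentiated controls, where Il18 and Il1rap overlapped (23.56 to 25.97 against 20.34 to 24.77 TPM). In differentiated BIGH3 libraries it was Il1rn, Il1rl1, Il33, Il1rap, Il18, Il1r1, Il1a, Irak3 and Il1b. Il1rl1 and Il33 overlapped there (19.34 to 26.08 against 20.76 to 23.96 TPM), as did Il18 and Il1r1 (6.93 to 10.49 against 8.27 to 9.09 TPM) and Il1a and Irak3. In undifferentiated controls the order was Il1rn, Il18, Il1rap, Il1r1, Il1rl1, Irak3, Il33, then Il1a and Il1b at 0, with Il18 and Il1rap overlapping and Irak3 and Il33 overlapping. In undifferentiated BIGH3 libraries the order was the same but for Il33 and Irak3, which changed places and again overlapped, as did Il18 and Il1rap. Il33 thus moved from near the bottom of the list to among the top 4 with differentiation. Il1rl1 moved with BIGH3 from the middle to the rank after Il1rn, though at a mean of 23.7 against 134 TPM.

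The genes whose log2 CPM followed each member most closely over the 12 libraries are given as a description, since the 12 points fall into 4 groups that share treatment and medium. For Il1a, with almost all reads in the differentiated BIGH3 libraries and r set by that group, they included Lifr and Plscr1 (both r = 0.995). For Il33 they were Slc48a1, Plod2 and Chst15 (r = 0.997 each). For Il1rl1 they were Npc2 (r = 0.996), Cxcl12 and Cx3cl1 (both r = 0.995). For Il1rn they were Igf1 (r = 0.998), Antxr1 and Enpp2 (both r = 0.997). For Il1rap they were Smpdl3a (r = 0.993), Pgam5 (0.991) and Lrp11 (0.989), and for Il1r1 Mcm10 (0.978), Mcm2 (0.978) and Fstl1 (0.976). Irak3 and Il18 had looser neighbours, with Csnk1a1 (0.972), Riok3 (0.970) and Alg8 (0.967) for Irak3 and Krt9 (0.951), Ncam1 (0.950) and Pex5l (0.950) for Il18.

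Other ligands of the family were close to absent. Of Il36a, Il36b, Il36g, Il36rn and Il1f10, none passed the filter, and the 12 libraries together held 26 reads of Il36g, 2 of Il36a and 0 of the other 3. Of 8 other receptors, decoys and binding proteins, 3 were tested. With BIGH3 in differentiated cells Il18rap, the accessory chain of the IL-18 receptor, rose from 0.91 ± 0.13 to 5.13 ± 0.56 CPM (SD, n = 3; log2 fold change 2.49 ± 0.28 SE, edgeR adjusted p = 2.38e-07). Il1rl2, the receptor of the IL-36 ligands, rose from 7.75 ± 0.55 to 14.7 ± 0.8 CPM (SD, n = 3; 0.92 ± 0.13 SE, edgeR adjusted p = 4.36e-06). Il18bp, which binds and blocks IL-18, was at 10.43 ± 1.38 and 11.95 ± 0.23 CPM (SD, n = 3) and was not called (edgeR adjusted p = 0.233). Il18r1, the ligand-binding IL-18 receptor chain, held 2 reads in the 12 libraries, and Il1r2, the decoy receptor of IL-1, held 17.

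Among 20 genes of receptor-proximal signalling, all tested, 4 rose and 6 fell with BIGH3 in differentiated cells, with a median log2 fold change of -0.07 against -0.01 over all genes. Map3k8, a MAP kinase kinase kinase of the pathway, rose from 4.85 ± 0.09 to 16.5 ± 0.9 CPM (SD, n = 3; 1.77 ± 0.13 SE), and Irak2 from 24.1 ± 1.8 to 43.6 ± 1.8 CPM (SD, n = 3; 0.85 ± 0.07 SE). Sqstm1, a scaffold and autophagy receptor, fell by 0.43 ± 0.05 SE (log2), and Peli2, a ubiquitin ligase of the IRAK complex, by 0.40 ± 0.08 SE. The share called, 10 of 20, was near the 45.5% of all genes. With differentiation in control cells 8 rose and 5 fell, against 57.7% of all genes called, among them Irak2 (0.84 ± 0.08 SE) and Traf3ip2 (0.75 ± 0.09 SE) upward and Peli2 (-1.33 ± 0.07 SE) downward.

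Of 19 genes of cytokine maturation and release, 12 were tested, and 6 rose and 4 fell with BIGH3 in differentiated cells (median 0.23), against 22.6% higher and 22.9% lower among all genes. Casp4, the caspase that senses intracellular lipopolysaccharide, rose from 21.6 ± 1.9 to 54.3 ± 2.0 CPM (SD, n = 3; log2 fold change 1.33 ± 0.08 SE), and P2rx7, the ATP-gated channel that triggers IL-1 release in macrophages, from 27.8 ± 1.7 to 54.1 ± 3.9 CPM (SD, n = 3; 0.96 ± 0.08 SE). Capn1, a protease able to process IL-1α, fell by 0.97 ± 0.06 SE (log2), and Nek7, a partner of NLRP3, by 0.44 ± 0.05 SE. Casp1, the activator of IL-1β and IL-18, rose with differentiation in control cells from 0.39 ± 0.15 to 5.85 ± 0.46 CPM (SD, n = 3; 3.86 ± 0.34 SE, edgeR adjusted p = 5.49e-08). Its further rise with BIGH3 (0.79 ± 0.26 SE, edgeR adjusted p = 0.019) was not called without any 1 of the 3 differentiated controls or of BIGH3 libraries 1 and 2 of the differentiated cells. Pycard, the adaptor that links inflammasome sensors to caspase-1, held 1 read in the 12 libraries, and Nlrc4 held 1.

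A list of 32 IL-1 response genes, largely NF-kB targets shared with other stimuli, had 27 that were tested. Of these, Nos2 passed the filter through the differentiated BIGH3 libraries alone. Among the other 26, 24 rose and 1 fell with BIGH3 in differentiated cells, with a median log2 fold change of 1.52, against 22.6% higher and 22.9% lower among all genes. The list was drawn up with results of these libraries known and is not independent evidence of its direction. Nos2, the inducible nitric oxide synthase, went from 0.57 ± 0.21 to 63.6 ± 2.1 CPM (SD, n = 3). Nfkbiz, a nuclear cofactor of NF-kB, rose by 3.48 ± 0.10 SE (log2), Zc3h12a, an RNase that degrades cytokine messages, by 2.18 ± 0.07 SE, and Sod2, the mitochondrial superoxide dismutase, by 1.53 ± 0.05 SE. The gene that fell, chosen after its value was seen, was Ptges, a prostaglandin E synthase (-0.46 ± 0.05 SE). Csf3, too low to be tested, had 24 reads in the 3 differentiated BIGH3 libraries and 0 in the other 9. In undifferentiated cells none of the 27 was called, nor was any gene of the other lists. With differentiation in control cells 11 rose and 10 fell (median 0.09), against 57.7% of all genes called (29.1% higher and 28.6% lower), with Mmp13, a collagenase, up by 6.12 ± 0.13 SE and Csf1, a macrophage growth factor, down by 0.45 ± 0.04 SE. The macrophage marker Cd14, the co-receptor for lipopolysaccharide, was at 6.28 ± 1.11 CPM in differentiated controls and 24.1 ± 2.6 CPM with BIGH3 (SD, n = 3), and the part of other cells in these levels was not tested.

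**Figure D4:**
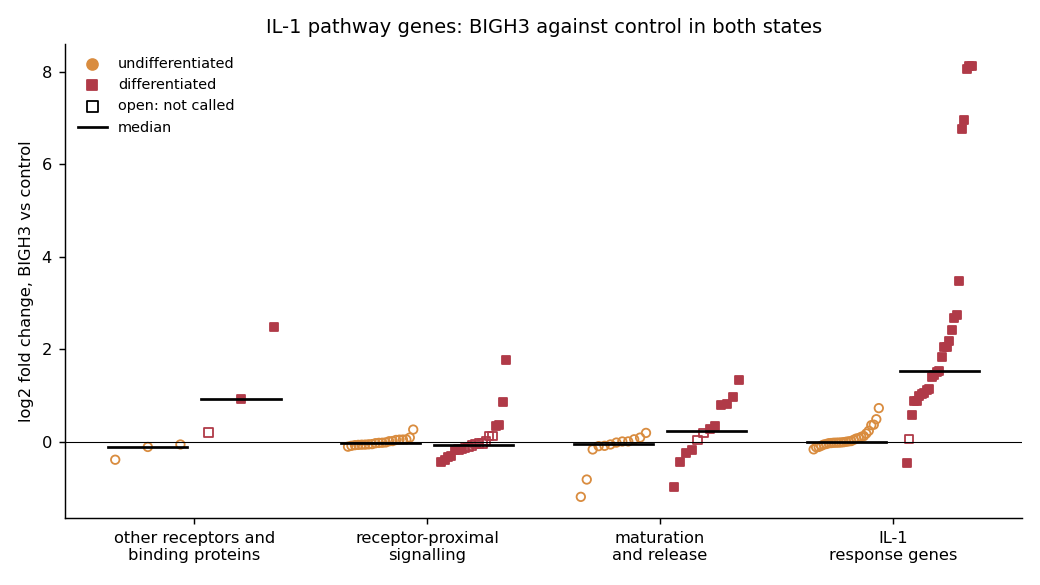
Log2 fold change with BIGH3 for each tested gene of 4 lists, in undifferentiated (circles) and differentiated cells (squares), filled where called and with a bar at the list's median. The response genes of differentiated cells lie mostly above 0 with a median of 1.53 (Nos2 included), the signalling genes lie on both sides of 0, and no circle is filled.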

How the data were processed

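Bulk RNA of 12 libraries was analysed from transcript tables, 1 per library. Per the submitters' processing notes, the tools were Salmon, StringTie, cutadapt and FastQC with build mm10, and no version is given in the sources used here. Per the file headers, the authors deposited estimated counts (reads shared between transcripts by a model), TPM and transcript lengths with effective lengths. Of 147828 transcripts, 137063 (92.7%) were matched by identifier, without version suffix, to GENCODE M21 (GRCm38). The suffix was 1 higher than there for 131373 of them, and unmatched transcripts, with 1.28% to 3.67% of a library's reads, were left out. Estimated counts were summed per gene and rounded. Genes were filtered with filterByExpr (14711 of 51707 kept), scaled by TMM, and tested in edgeR 4.0.16 under R 4.3.3 (quasi-likelihood, robust, 1 term per group, 8 residual degrees of freedom). Tests were two-sided and adjusted by Benjamini-Hochberg over all genes tested, and called genes have an adjusted p below 0.05. Standard errors were worked back from the F statistic, and CPM uses TMM-scaled library sizes. No pair of libraries of a group agreed within sampling noise.

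Alternatives were library totals, no filter, length offsets, the compared groups alone, a replicate block, DESeq2 1.42.0, limma 3.58.1 on log2(TPM + 0.5), each library left out, and the 3 or 4 libraries with liver transcripts left out. In simulated counts for the differentiated comparison (14711 genes, 50 per fold size), 92% of log2 changes of -1 and 98% of those of 1 were called, with 6.25% false calls. Genes with few reads, such as Irak3 and Il1a, were not among those changed, so the rates do not cover them. Far fewer genes were changed than were called in the data, so the rates under such broad change are not known. Intervals and floors cover counting error only.

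The members and lists were chosen with earlier results of these data known. Named genes were the 9 members, up to 4 genes of each list with the smallest adjusted p per comparison, list genes under 30 reads in all, and for each member the 3 genes of highest Pearson r over log2 CPM. Some genes that met these rules are left out of the text.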

Additional observations from a re-analysis of the deposited data

Results flagged for a closer look

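Each value here is the BIGH3 effect in differentiated cells minus that in undifferentiated cells (log2, the interaction in edgeR), which was called. Among the members it was 2.08 for Irak3, 1.91 for Il1rl1, 1.26 for Il33, 0.96 for Il1r1, -0.28 for Il1rap, -0.37 for Il1rn and -1.42 for Il18. Among other receptors it was 2.88 for Il18rap and 1.03 for Il1rl2. Among signalling genes it was 1.503 for Map3k8, 0.92 for Irak2, -0.40 for Sqstm1 and -0.44 for Peli2. For maturation and release it was 1.14 for Casp4, 0.98 for P2rx7, -0.49 for Nek7 and -0.92 for Capn1. For response genes it was 6.88 for Nos2 (which passed the filter on low counts through the differentiated BIGH3 libraries alone), 3.30 for Nfkbiz, 2.27 for Zc3h12a and 1.46 for Sod2. The calls of Irak3, Il33, Il1rn and Il1rap were not made under the alternatives given with them in the report.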

How the results depend on the processing

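Over 21 alternatives (20 for the interaction), the number of the 9 members called was 0 in each for BIGH3 in undifferentiated cells, 8 in each for BIGH3 in differentiated cells and 6 in each for differentiation in control cells. It was 7 to 8 for differentiation in BIGH3 treated cells, also with 1 library left out. For the interaction it was 7, with 6 to 7 when 1 library was left out and 4 with length offsets. DESeq2 and limma also gave a call for Il1a. That call is no support, because the gene was tested only through its reads in the differentiated BIGH3 libraries. Of 789 member values, 764 kept direction and call, 25 lost the call and none reversed. Of 2389 pathway values, 39 lost a call, 7 gained one and 4 reversed, all 4 with limma on log2 TPM. With differentiation in control cells these were Sod2 (-0.0079), Gsdmd (-0.0095) and P2rx7 (-0.0026), and in BIGH3 treated cells Csf1 (-0.15). The cause was not tested. These counts include Il1a, which passed the filter through 1 group alone. With the replicate number as a block, the member counts were the same (0, 8, 6, 8 and 7). Deviations of same-numbered libraries correlated between -0.22 and 0.35 over 12 pairs, so the numbers were not taken as pairing. In undifferentiated cells the genes called were 3, and 21 without a filter, 8 with DESeq2, 1 with length offsets, 1 with limma and 0 with the groups alone. Of called interactions 50.3% were higher, against 66.0% with limma on log2 TPM. Few reads limit the precision for Il1a, Il1b and Irak3, and for Il33 in undifferentiated cells.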
